A study of Mus musculus with 8 samples.

Results

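The genes described here are the nuclear effectors of the Hippo pathway and a small set of genes around them, in mouse brain pericytes treated with TGF-β1. They are *Yap1* and *Wwtr1*, which encode the coactivators YAP and TAZ, the 4 TEAD genes *Tead1*, *Tead2*, *Tead3* and *Tead4*, the TEAD cofactor *Vgll3*, the inhibitory kinase *Lats2*, and *Ankrd1* and *Amotl2*, which are known target genes of YAP and TAZ. They were taken by name, after the gene identifiers of the count tables had been matched to mouse symbols, and make up 10 of 54532 identifiers. These genes, and the lists of other genes used below, were chosen with earlier results of these data known. All 10 had enough counts to be tested, among 22544 genes that did.

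The Hippo pathway is a kinase cascade in which the MST kinases activate the LATS kinases, and the LATS kinases phosphorylate YAP and TAZ. Phosphorylated YAP and TAZ are held in the cytoplasm or degraded, whereas the unphosphorylated proteins enter the nucleus and bind TEAD proteins, which carry them to DNA. Their activity is therefore set largely on the protein, by phosphorylation and location, which RNA-seq does not measure. In mural cells and fibroblasts the pathway is known for its response to stiffness and spreading on a substrate, and several of its target genes are also direct targets of TGF-β signaling.

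RNA was sequenced from 8 primary cultures of brain pericytes, the mural cells of capillaries, all of wild-type genotype. The vehicle group held 4 cultures (replicates 1 to 4) and the TGF-β1 group 4 cultures (replicates 5 to 8) given 5 μg/mL of the cytokine, and both were collected at 48 h. According to the study's methods the cells came from papain-digested brains, were expanded in an endothelial growth medium with serum and were then kept in a pericyte medium with less serum. The cultures came from 4 independent isolates, so the 8 cultures are not 8 isolates. The labels number the cultures 1 to 8 without tying any vehicle culture to a TGF-β1 culture. The mice were male and 4 or 6 months old, an age given for the animals in general and not for the brain donors in particular. Each culture had between 45255235 and 47651397 counts, so that 3 counts correspond to 0.0630 to 0.0663 CPM, the count of a gene scaled to a common library size.

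Markers of the labelled cell type were present in part. Of 10 pericyte markers, *Pdgfrb*, *Cspg4*, *Notch3*, *Anpep* and *Rgs5* were measured, whereas *Kcnj8*, *Abcc9*, *Vtn*, *Atp13a5* and *Higd1b* stayed under 1 CPM in every culture. Fibroblast markers summed to 1880 to 1979 CPM with vehicle and 2746 to 2890 CPM with TGF-β1, with 2 of 6 (*Lum* and *Slc6a13*) under 1 CPM throughout, and pericyte markers to 414 to 434 and 568 to 591 CPM. Smooth muscle markers summed to 818 to 889 CPM with vehicle and 770 to 801 CPM with TGF-β1, with *Myocd* of the 6 under 1 CPM. Endothelial markers summed to 471 to 484 and 472 to 498 CPM, most of it from *Cdh5*, with *Cldn5* and *Erg* of the 7 under 1 CPM. Astrocyte markers reached 27.9 CPM at most, macrophage and microglia markers 5.16 CPM and oligodendrocyte markers 6.04 CPM, and *Aqp4* of the 5, *Ptprc*, *Aif1*, *C1qa* and *P2ry12* of the 6, and *Olig2* and *Sox10* of the 5 were under 1 CPM. Fibroblast and pericyte marker sums were higher in every treated culture, as were most of the 10 genes described below, and their part in those results was not tested. The higher sums came from a few abundant markers. *Col1a1* was at 1535 to 1621 CPM with vehicle and 2461 to 2580 CPM with TGF-β1, and *Pdgfrb* and *Cspg4* rose. In contrast, 2 of the 4 fibroblast markers and 3 of the 7 pericyte markers tested were lower, with median log2 fold changes of -0.07 and -0.04. These changes ran from -0.31 to 0.67 over the fibroblast markers and from -2.02 to 1.03 over the pericyte markers. In such bulk RNA a change in the share of a cell type and a change in RNA per cell cannot be told apart.

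TEAD proteins recognize the bases CATTCC, which read GGAATG on the other strand, and these were searched in the sequence around the annotated starts of the genes. RefSeq start windows, from 250 bases before to 50 bases after each start on GRCm38.p6, were given for 8 of the 10 genes, and *Tead1* and *Tead4* had no entry. The motif, on either strand, lay in a window of 7 of these 8 genes, *Tead2* being the exception, and in 9 of their 12 windows. Over all genes with a window, 16.6% of 27025 genes and 14.7% of 32851 windows held it, as did 4 of 12 genes on a longer list of YAP and TAZ targets. Windows of a gene can overlap, and those of *Wwtr1* held the same motif, so counts of windows are not counts of separate motifs. A match of these letters is a description and not a binding site.

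The sequences upstream of *Yap1*, *Wwtr1* and *Vgll3* are shown because these 3 genes encode proteins that bind TEAD, and because *Yap1* was not called whereas *Wwtr1* and *Vgll3* rose. Each run is the 250 bases before the RefSeq start, 5′ to 3′ on the strand of the gene, with the TEAD motif in capitals. The runs lie at chr9:8004597-8004846 (minus strand) for *Yap1*, chr3:57575911-57576160 (minus strand) for *Wwtr1* and chr16:65814939-65815188 (plus strand) for *Vgll3*.
Yap1: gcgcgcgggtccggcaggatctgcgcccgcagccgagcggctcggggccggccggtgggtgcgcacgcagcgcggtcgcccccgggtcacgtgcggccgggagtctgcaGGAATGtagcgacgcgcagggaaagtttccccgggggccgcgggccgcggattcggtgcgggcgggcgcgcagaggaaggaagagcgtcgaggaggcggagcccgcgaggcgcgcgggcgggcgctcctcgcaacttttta
Wwtr1: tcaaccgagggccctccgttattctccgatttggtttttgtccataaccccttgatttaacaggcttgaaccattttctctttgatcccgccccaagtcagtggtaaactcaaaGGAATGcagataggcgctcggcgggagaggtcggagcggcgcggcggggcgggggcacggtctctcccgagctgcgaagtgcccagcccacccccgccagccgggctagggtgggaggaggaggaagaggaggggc
Vgll3: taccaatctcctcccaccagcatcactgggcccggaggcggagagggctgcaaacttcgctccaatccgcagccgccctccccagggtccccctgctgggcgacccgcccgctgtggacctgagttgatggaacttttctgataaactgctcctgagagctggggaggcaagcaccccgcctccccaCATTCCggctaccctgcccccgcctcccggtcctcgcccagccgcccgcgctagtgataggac
The motif stood 141 bases before the start in *Yap1*, 136 in *Wwtr1* and 63 in *Vgll3*, and was thus present in both coactivator genes.

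For the target genes and *Lats2*, 30 bases around each motif are shown, on the strand of the gene and again with the motif in capitals. *Ankrd1* held 2 motifs, at 210 and 123 bases before its RefSeq start (chr19:36120037-36120066 and chr19:36119950-36119979, minus strand), and each falls in an exon of 1 of its 6 annotated transcripts. The *Amotl2* motif lay 65 bases before the start (chr9:102717727-102717756, plus strand), in an exon of 2 of 14 transcripts. The *Lats2* motif lay 5 bases after a start (chr14:57746102-57746131, minus strand), in an exon of 2 of 9 transcripts. *Tead3*, which was not called, also held motifs, at 182, 123 and 114 bases before and 3 bases after its RefSeq starts. Those of *Tead3* are not shown.
Ankrd1, distal: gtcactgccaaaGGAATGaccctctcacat
Ankrd1, proximal: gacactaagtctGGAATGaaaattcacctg
Amotl2: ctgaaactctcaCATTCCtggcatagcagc
Lats2: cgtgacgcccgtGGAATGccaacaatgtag

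Of the 10 genes, 8 were higher in TGF-β1-treated pericytes and none was lower (edgeR quasi-likelihood test, adjusted p under 0.05 over all genes tested). The count of lower genes was also 0 at an unadjusted p under 0.05 and by DESeq2, and the 2 genes not called were *Yap1* and *Tead3*. Over all genes 41.3% were called, with 20.9% of the genes tested higher and 20.3% lower. The groups did not overlap in 37.9% of all genes, against 8 of these 10. Among the 4339 genes with a mean of at least 61.0 CPM, 69.5% were called and 40.3% were higher, although *Ankrd1* and *Lats2* lay below that level. The 10 genes were chosen with earlier results known, so their counts are descriptions. The changes were small in most: the median log2 fold change was 0.19 over the 10 genes and -0.01 over all genes. The exact two-sided permutation p was 0.0286 for each of the 8 genes, the smallest that 4 against 4 unpaired cultures allow. The labels give no pairing by isolate, so this test does not account for one.

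**Figure D1:**
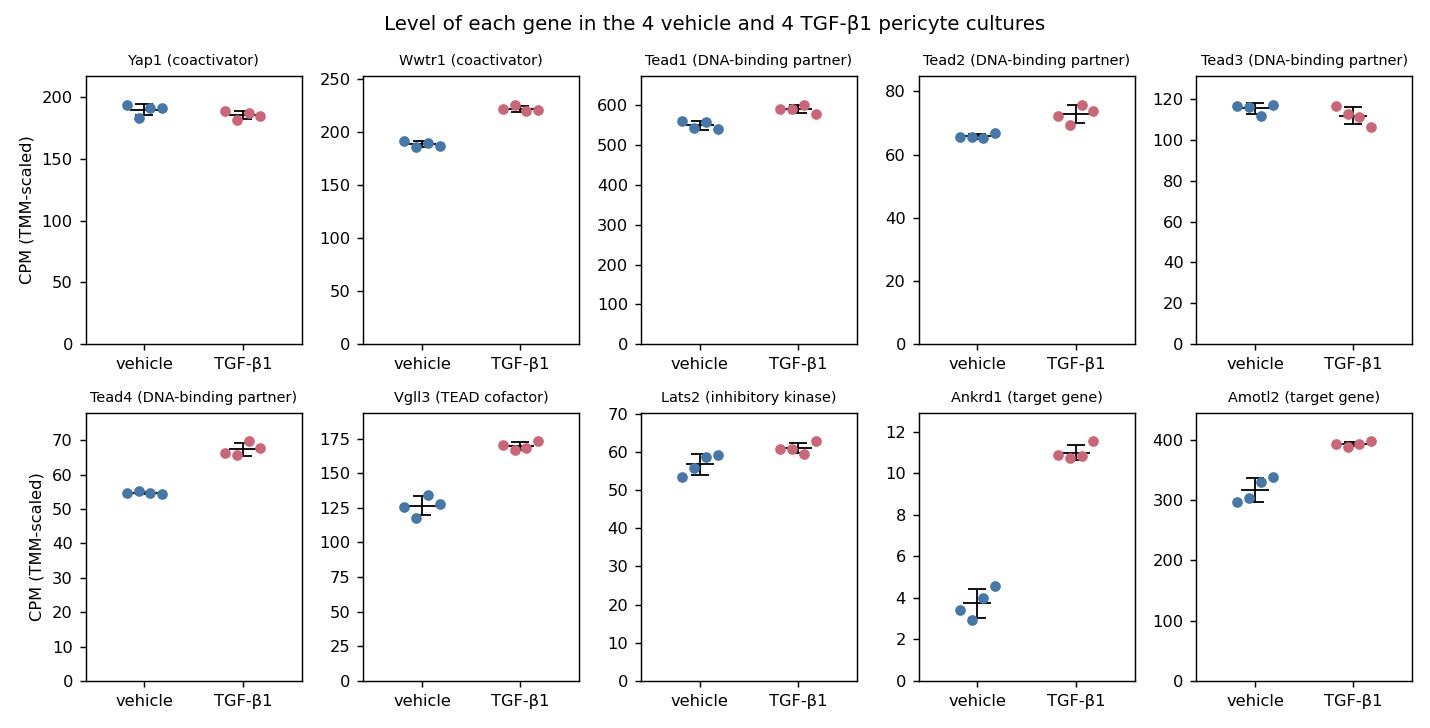
Level of each of the 10 genes in CPM (y axes from 0), 1 point per culture, vehicle in blue and TGF-β1 in red, with the mean and SD (n = 4) as black bars. The groups overlap in *Yap1* and *Tead3* and lie apart in the other 8 genes, with the widest relative gap in *Ankrd1*, at 2.94 to 4.57 CPM against 10.7 to 11.5 CPM.

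The coactivators differed from each other. *Yap1* (ENSMUSG00000053110, chr9:7931999-8004596, minus strand, mm10) was at 194, 183, 192 and 191 CPM in vehicle replicates 1 to 4 and at 189, 181, 187 and 184 CPM in TGF-β1 replicates 5 to 8. The groups overlapped, with means of 190 ± 4.69 and 185 ± 3.47 CPM (SD, n = 4 each). Its log2 fold change was -0.03 (SE 0.02), with an adjusted p of 0.292 in edgeR and an exact permutation p of 0.171. The 95% interval of the change ran from -5.60% to 1.01%, at 8315 counts or more in each culture, so that a fall of a few percent is within it. A gene on the opposite strand, *Gm20416*, overlaps 1.25% of the *Yap1* exon length and had 85 to 110 counts per culture.

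*Wwtr1* (ENSMUSG00000027803, chr3:57455649-57575910, minus strand), which encodes TAZ, was at 191, 186, 190 and 187 CPM with vehicle and at 221, 226, 219 and 221 CPM with TGF-β1. Every treated culture lay above every vehicle culture, and the means were 189 ± 2.51 and 222 ± 2.83 CPM (SD, n = 4). The log2 fold change was 0.23 (SE 0.02, edgeR adjusted p = 2.46e-11), a rise of 17.6%. Its interval, 13.8% to 21.4%, does not meet that of *Yap1*.

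Because TAZ transcript rose while YAP transcript was not called, the ratio of *Wwtr1* to *Yap1* was computed in each culture from CPM per kb of annotated exon, a scale that corrects for gene length. The ratio was 1.92 ± 0.0315 with vehicle (1.90 to 1.97) and 2.32 ± 0.0693 with TGF-β1 (2.27 to 2.42), without overlap. It combines the 2 results above and is not a separate test. The summed level of both coactivators went from 60.0 to 66.4 CPM per kb, also without overlap. These are levels of RNA, and the amounts of the 2 proteins were not measured in these files.

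The TEAD proteins bind DNA and have little activity of their own until a coactivator joins them. Of the 4 genes, *Tead1*, *Tead2* and *Tead4* rose. With *Yap1* and *Wwtr1* they make 6 effector genes, of which 4 rose, with a median log2 fold change of 0.12. Among the 4339 genes whose mean was at least that of the lowest effector, 61.0 CPM, 69.5% were called and 40.3% were higher, and their log2 fold changes had a median size of 0.12. The 4 of 6 effectors called and their median are near these values.

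*Tead1* (ENSMUSG00000055320, chr7:112679318-112906807, plus strand) was the most abundant of them, also per length, at 560, 542, 557 and 539 CPM with vehicle and 590, 591, 602 and 579 CPM with TGF-β1. The groups did not overlap, with means of 549 ± 10.4 and 590 ± 9.24 CPM and a log2 fold change of 0.10 (SE 0.02, edgeR adjusted p = 0.000118), or 7.47%. *Tead2* (ENSMUSG00000030796, chr7:45215753-45233644, plus strand) was at 65.5, 65.7, 65.2 and 66.9 CPM with vehicle and 72.1, 69.2, 75.8 and 73.9 CPM with TGF-β1. All treated cultures were higher, and the log2 fold change was 0.14 (SE 0.03, edgeR adjusted p = 0.000182), or 10.5%.

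*Tead4* (ENSMUSG00000030353, chr6:128224288-128300823, minus strand) had the largest rise of the effectors. It was at 54.5, 55.3, 54.6 and 54.3 CPM with vehicle, a range of about 1 CPM, and at 66.2, 65.8, 69.7 and 67.6 CPM with TGF-β1. The groups lay well apart, with a log2 fold change of 0.30 (SE 0.03, edgeR adjusted p = 7.86e-11), or 23.1%.

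*Tead3* (ENSMUSG00000002249, chr17:28331671-28350817, minus strand) was the TEAD gene that was not called. Its level was 117, 116, 112 and 117 CPM with vehicle and 117, 113, 111 and 107 CPM with TGF-β1, and the groups overlapped. The log2 fold change was -0.05 (SE 0.03, edgeR adjusted p = 0.201, exact permutation p = 0.229), with a 95% interval from -6.81% to 0.640%, which lies below that of each other TEAD gene.

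The make-up of the TEAD transcripts shifted slightly. Per kb of exon, the 4 genes summed to 86.6 ± 0.564 CPM with vehicle and 94.1 ± 1.52 CPM with TGF-β1. The share of *Tead4* was 17.5% with vehicle and 19.9% with TGF-β1, and that of *Tead3* 19.8% and 17.7%, both without overlap between the groups. The shares of *Tead1* (46.7% and 46.3%) and *Tead2* (15.9% and 16.2%) overlapped.

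**Figure D2:**
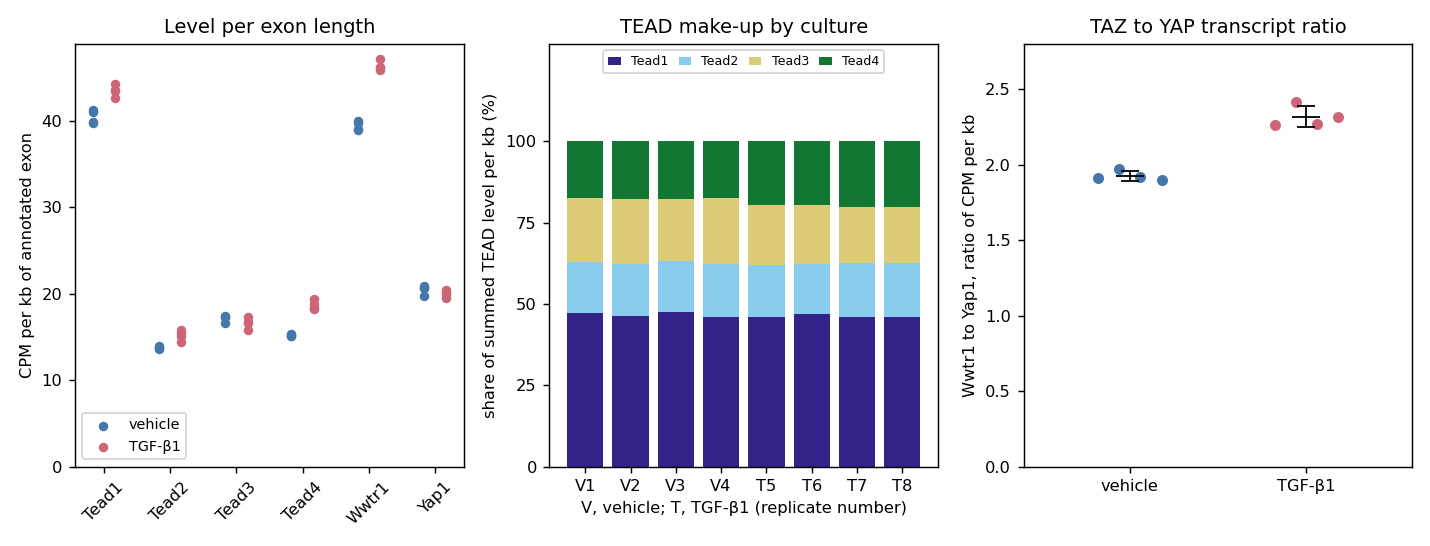
Left, level of each effector in CPM per kb of annotated exon, 1 point per culture, vehicle in blue and TGF-β1 in red. Middle, share of each TEAD gene in the summed TEAD level in each culture (V, vehicle; T, TGF-β1), in which *Tead1* holds 46.0% to 47.5% everywhere. Right, ratio of *Wwtr1* to *Yap1* with mean and SD (n = 4), 1.90 to 1.97 with vehicle and 2.27 to 2.42 with TGF-β1.

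Ordered by level per kb of exon, the genes in vehicle cultures ran from *Amotl2* (50.4 CPM per kb) through *Tead1* (40.5), *Wwtr1* (39.5), *Yap1* (20.5), *Vgll3* (17.8), *Tead3* (17.2), *Tead4* (15.2), *Tead2* (13.7) and *Lats2* (8.14) to *Ankrd1* (1.29). The neighbours *Tead1* and *Wwtr1*, and *Vgll3* and *Tead3*, overlapped between cultures and the other neighbours did not. With TGF-β1 the order was *Amotl2* (62.5 CPM per kb), *Wwtr1* (46.4), *Tead1* (43.5), *Vgll3* (23.9), *Yap1* (20.03), *Tead4* (18.7), *Tead3* (16.6), *Tead2* (15.2), *Lats2* (8.75) and *Ankrd1* (3.81), and no neighbours overlapped. *Wwtr1* thus stood above *Tead1*, *Vgll3* above *Yap1*, and *Tead4* above *Tead3* by their means only in the treated cultures. The exon lengths join all annotated transcripts, so a gene with long rare transcripts appears lower than it is. Part of the *Lats2* exon length is also shared with another annotated gene. Over its unshared length *Lats2* was at 14.1 CPM per kb with vehicle and 15.2 with TGF-β1. Its place below *Tead2* therefore depends on the length used in vehicle cultures. With TGF-β1 its mean over the unshared length, 15.18 CPM per kb, was still just below that of *Tead2*, 15.20.

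*Vgll3* (ENSMUSG00000091243, chr16:65815257-65866368, plus strand) encodes a vestigial-like protein that binds TEAD at the surface also used by YAP and TAZ. It was at 125, 118, 134 and 128 CPM with vehicle and at 170.3, 167, 168 and 173 CPM with TGF-β1. The groups did not overlap and the log2 fold change was 0.42 (SE 0.03, edgeR adjusted p = 9.43e-16), or 34.1%, the largest rise among the 10 genes after *Ankrd1*. Of the other vestigial-like genes only *Vgll4*, whose product competes with YAP for TEAD, had enough counts to be tested. *Vgll4* went the other way, from 70.1, 71.2, 69.0 and 72.6 CPM to 49.9, 53.3, 50.5 and 49.4 CPM, with a log2 fold change of -0.48 (SE 0.03, edgeR adjusted p = 1.69e-16). *Vgll1* and *Vgll2* did not exceed 0.04 and 0.11 CPM in any culture.

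*Lats2* (ENSMUSG00000021959, chr14:57689662-57758388, minus strand) encodes a kinase that phosphorylates YAP and TAZ and is itself a known YAP target gene. It was at 53.4, 55.7, 58.6 and 59.2 CPM with vehicle and at 60.9, 60.9, 59.4 and 62.8 CPM with TGF-β1. The highest vehicle culture lay just under the lowest treated culture. The log2 fold change was 0.10 (SE 0.03, edgeR adjusted p = 0.0124), or 7.50%, and without vehicle replicate 1 it was 0.08 with an adjusted p of 0.0714. In GENCODE M21, 42.4% of the exon length of *Lats2* is shared with *Gm49361*, a gene annotated on the same strand that had 0 counts in every culture, so the level of *Lats2* may be understated. Divided by the unshared exon length, it was 14.1 and 15.2 CPM per kb.

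The target genes rose by very different amounts. *Ankrd1* (ENSMUSG00000024803, chr19:36111961-36120099, minus strand), which encodes a muscle ankyrin repeat protein and is widely used as a readout of YAP and TAZ, was at 3.43, 2.94, 4.00 and 4.57 CPM with vehicle. With TGF-β1 it was at 10.9, 10.7, 10.8 and 11.5 CPM, and the groups lay far apart. The means were 3.73 ± 0.706 and 10.99 ± 0.367 CPM (SD, n = 4), and the log2 fold change was 1.56 (SE 0.09, edgeR adjusted p = 2.93e-18), a 2.94-fold rise. Only 226 of the 22544 genes tested had a larger log2 rise. *Ankrd1* was also the least abundant of the 10 genes per length, with 134 to 211 counts per vehicle culture and 493 to 542 per treated culture.

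*Amotl2* (ENSMUSG00000032531, chr9:102716672-102733418, plus strand) encodes an angiomotin-like protein that binds YAP and retains it at junctions and in the cytoplasm. It was at 297, 303, 329.9 and 338 CPM with vehicle and at 393, 388, 393 and 397 CPM with TGF-β1. The groups did not overlap, with means of 317 ± 19.99 and 393 ± 3.92 CPM and a log2 fold change of 0.31 (SE 0.03, edgeR adjusted p = 3.05e-08), or 23.9%. Its rise was thus close to that of *Tead4* and far below that of *Ankrd1*.

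Ratios of the targets to the effectors in the same culture largely follow from the fold changes above and are no separate test. The ratio of *Ankrd1* to *Wwtr1*, in CPM, was 0.0158 to 0.0245 with vehicle and 0.0476 to 0.0523 with TGF-β1, without overlap. The ratio of *Amotl2* to *Wwtr1* was 1.55 to 1.81 and 1.72 to 1.80, which overlap, whereas that of *Amotl2* to *Yap1* was 1.53 to 1.77 and 2.08 to 2.15, which do not.

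For both targets the spread was wider among vehicle than among treated cultures. *Ankrd1* had a coefficient of variation of 18.9% with vehicle and 3.34% with TGF-β1, and *Amotl2* of 6.30% and 0.998%. Medians over the 16494 genes with a mean of at least 1 CPM were 4.96% and 4.73%. Those genes are not matched to either target by level, and *Ankrd1* had only 134 to 211 counts per vehicle culture. In *Ankrd1*, *Amotl2*, *Lats2* and *Vgll3*, vehicle replicates 3 and 4 were both above vehicle replicates 1 and 2, an order noticed after the values were seen. The order was also present in 6 of 19 other YAP and TAZ targets, among them *Ccn1* and *Ccn2* but not *Igfbp3*, *Nuak2* or *Gadd45a*, in 5 of 26 upstream genes and in 7 of 10 genes for retention and degradation. It was present in 24.1% of the 16494 genes.

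**Figure D3:**
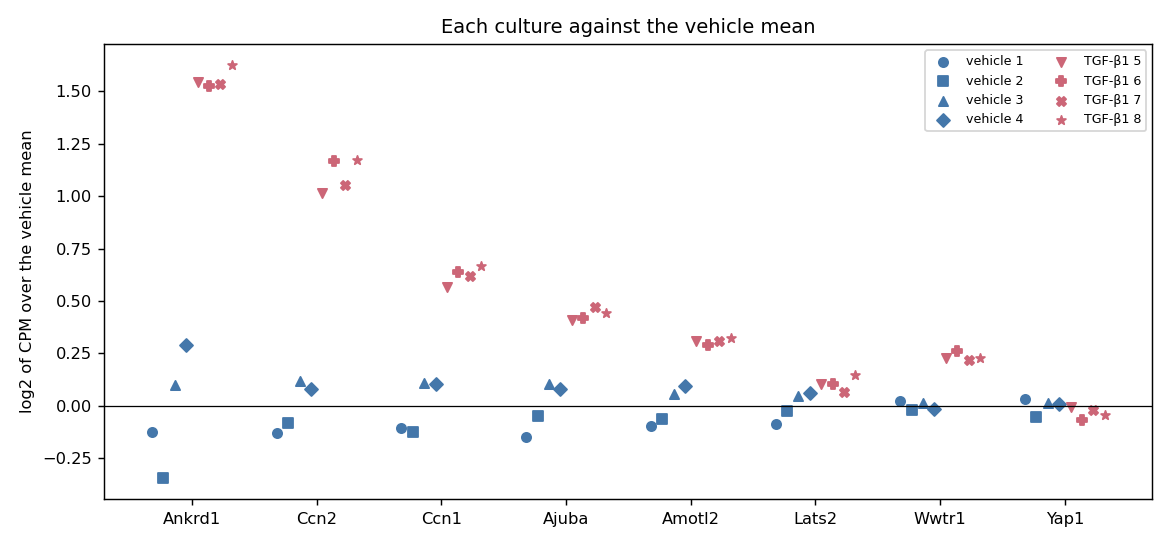
Each culture as the log2 of its CPM over the vehicle mean (y axis), for 4 targets, *Ajuba*, *Lats2*, *Wwtr1* and *Yap1*, with 1 symbol per culture, vehicle in blue and TGF-β1 in red. Vehicle replicates 3 and 4 lie above 1 and 2 in the first 6 genes, and the treated cultures lie above all vehicle cultures in every gene but *Yap1*.

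A list of 19 other genes that are known YAP and TAZ targets was examined next to *Ankrd1* and *Amotl2*. All 19 were called, 11 higher and 8 lower, with a median log2 fold change of 0.11 and groups that did not overlap in 18. Over all genes 41.3% were called and 37.9% did not overlap, and 69.5% were called among genes with a mean of at least 61.0 CPM. The list is not matched to that level, and some of its genes, such as *Igfbp3*, *Nuak2* and *Gadd45a*, lay below it. Of the 19, 5 rose by more than 1 on the log2 scale, against 2.59% of all genes, and 8 by more than 0.3, against 9.68%. Without single treated or vehicle cultures the number called was 17 to 19. The list's median therefore hides changes in both directions.

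Among the rises, *Ccn2*, which encodes the matricellular protein CTGF and is a classical target of both pathways, went from 209, 216, 248 and 241 CPM to 462, 513, 475 and 515 CPM. Its log2 fold change was 1.10 (SE 0.07, edgeR adjusted p = 1.47e-05), and its ratio to *Wwtr1* was 1.09 to 1.31 with vehicle and 2.09 to 2.34 with TGF-β1. *Ccn1*, which encodes the related protein CYR61, went from 171, 168, 198 and 197 CPM to 272, 285, 282 and 292 CPM (log2 fold change 0.62, SE 0.06, edgeR adjusted p = 0.000151). Neither gene had overlapping groups.

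The largest rises on the list were in *Igfbp3*, *Nuak2* and *Gadd45a*. *Igfbp3*, a secreted binding protein of insulin-like growth factors, was at 4.97, 4.32, 5.89 and 4.85 CPM with vehicle and 12.4, 14.9, 15.1 and 14.8 CPM with TGF-β1 (log2 fold change 1.51, SE 0.08, edgeR adjusted p = 2.77e-19). *Nuak2*, a kinase related to AMPK, rose from 3.14 ± 0.450 to 7.85 ± 1.39 CPM (log2 fold change 1.32), and *Gadd45a*, a stress-induced growth arrest gene, from 9.02 ± 0.252 to 21.6 ± 2.03 CPM (log2 fold change 1.26). Like *Ankrd1*, they were under 10 CPM in every vehicle culture.

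The falls were smaller. *Myof*, which encodes the membrane repair protein myoferlin, was at 823, 820, 817 and 822 CPM with vehicle and 683, 690, 687 and 687 CPM with TGF-β1 (log2 fold change -0.26, SE 0.02, edgeR adjusted p = 2.08e-14). *F3*, which encodes tissue factor, fell from 170 ± 3.71 to 140 ± 4.59 CPM (log2 fold change -0.27). *Tgfb2*, a TGF-β ligand, fell from 42.5 ± 1.09 to 32.9 ± 0.763 CPM (log2 fold change -0.37, edgeR adjusted p = 4.87e-11). The other 5 genes that were lower, *Axl*, *Ptpn14*, *Dock5*, *Fjx1* and *Arhgef17*, had log2 fold changes between -0.12 and -0.09.

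Upstream of YAP and TAZ, 26 kinases, scaffolds and membrane proteins of the pathway were tested. Of these, 9 were higher, 8 lower and 9 not called, with a median log2 fold change of -0.01. The 65.4% called compare with 41.3% of all genes and with 69.5% of genes with a mean of at least 61.0 CPM. The list is not matched to that level, and some of its genes, such as *Dchs1*, *Wwc1* and *Stk4*, lay below it. The median size of change was 0.13, against 0.18 for all genes and 0.12 for those of at least 61.0 CPM. The core kinases moved in different directions: *Stk4* (MST1) rose from 39.7 ± 0.967 to 45.8 ± 1.22 CPM (log2 fold change 0.21) and *Lats1* from 177 ± 2.30 to 191 ± 3.49 CPM (0.11), whereas *Stk3* (MST2) fell from 76.9 ± 1.92 to 67.4 ± 1.57 CPM (-0.19). Their edgeR adjusted p-values were 7.79e-06, 0.000216 and 1.31e-06. *Sav1*, the scaffold that joins the MST kinases to LATS, fell from 194 ± 5.81 to 142 ± 2.66 CPM (log2 fold change -0.45, edgeR adjusted p = 3.05e-19).

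The largest change of the list was in *Fat4*, an atypical cadherin that acts as a receptor, which was at 220, 214, 197 and 197 CPM with vehicle and 78.9, 71.3, 73.8 and 70.6 CPM with TGF-β1. Its log2 fold change was -1.49 (SE 0.04, edgeR adjusted p = 3.81e-17). *Dchs1*, which encodes the cadherin that FAT4 binds, was at 2.58, 2.43, 2.76 and 2.10 CPM with vehicle and 3.38, 3.18, 3.36 and 3.04 CPM with TGF-β1 (log2 fold change 0.39, SE 0.13, edgeR adjusted p = 0.0114), and its adjusted p was 0.0546 without vehicle replicate 4. The receptor and its partner thus changed in opposite directions.

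*Ajuba*, a LIM-domain protein that binds and inhibits LATS kinases, was at 81.4, 87.1, 96.9 and 95.1 CPM with vehicle and 120, 120, 125 and 123 CPM with TGF-β1 (log2 fold change 0.44, SE 0.04, edgeR adjusted p = 2.57e-07). Its relative *Limd1* was among the 8 genes that were lower. The WW-domain scaffold *Wwc2* rose from 165 ± 1.46 to 198 ± 5.29 CPM (log2 fold change 0.27), and its relative *Wwc1* fell from 18.9 ± 1.66 to 15.4 ± 0.229 CPM (-0.30).

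Of 10 genes for retention and degradation of YAP and TAZ, 5 were higher, 2 lower and 3 not called, with a median log2 fold change of 0.06. The 7 of 10 called are near the 69.5% among genes of at least 61.0 CPM and above the 41.3% of all genes. The list is not matched to that level, and *Sfn* and *Btrc* lay below it. They encode 14-3-3 proteins, which hold phosphorylated YAP and TAZ in the cytoplasm, and the casein kinases and the ubiquitin ligase subunit that mark them for degradation. *Sfn* rose from 7.27 ± 0.293 to 10.4 ± 0.735 CPM (log2 fold change 0.52), *Ywhag* from 286 ± 5.64 to 337 ± 5.04 CPM (0.24) and *Csnk1e* from 66.0 ± 2.04 to 73.1 ± 2.39 CPM (0.15). *Btrc*, the ligase subunit, fell from 53.2 ± 0.570 to 49.95 ± 1.27 CPM (log2 fold change -0.09, edgeR adjusted p = 0.0254) and *Ywhaz* from 591 ± 13.8 to 562 ± 9.55 CPM (-0.07, edgeR adjusted p = 0.00795). The fall of *Btrc* was not called in 6 of the 8 fits without a culture, with adjusted p-values up to 0.0670, and that of *Ywhaz* was not called without vehicle replicate 3 (adjusted p = 0.0617).

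**Figure D4:**
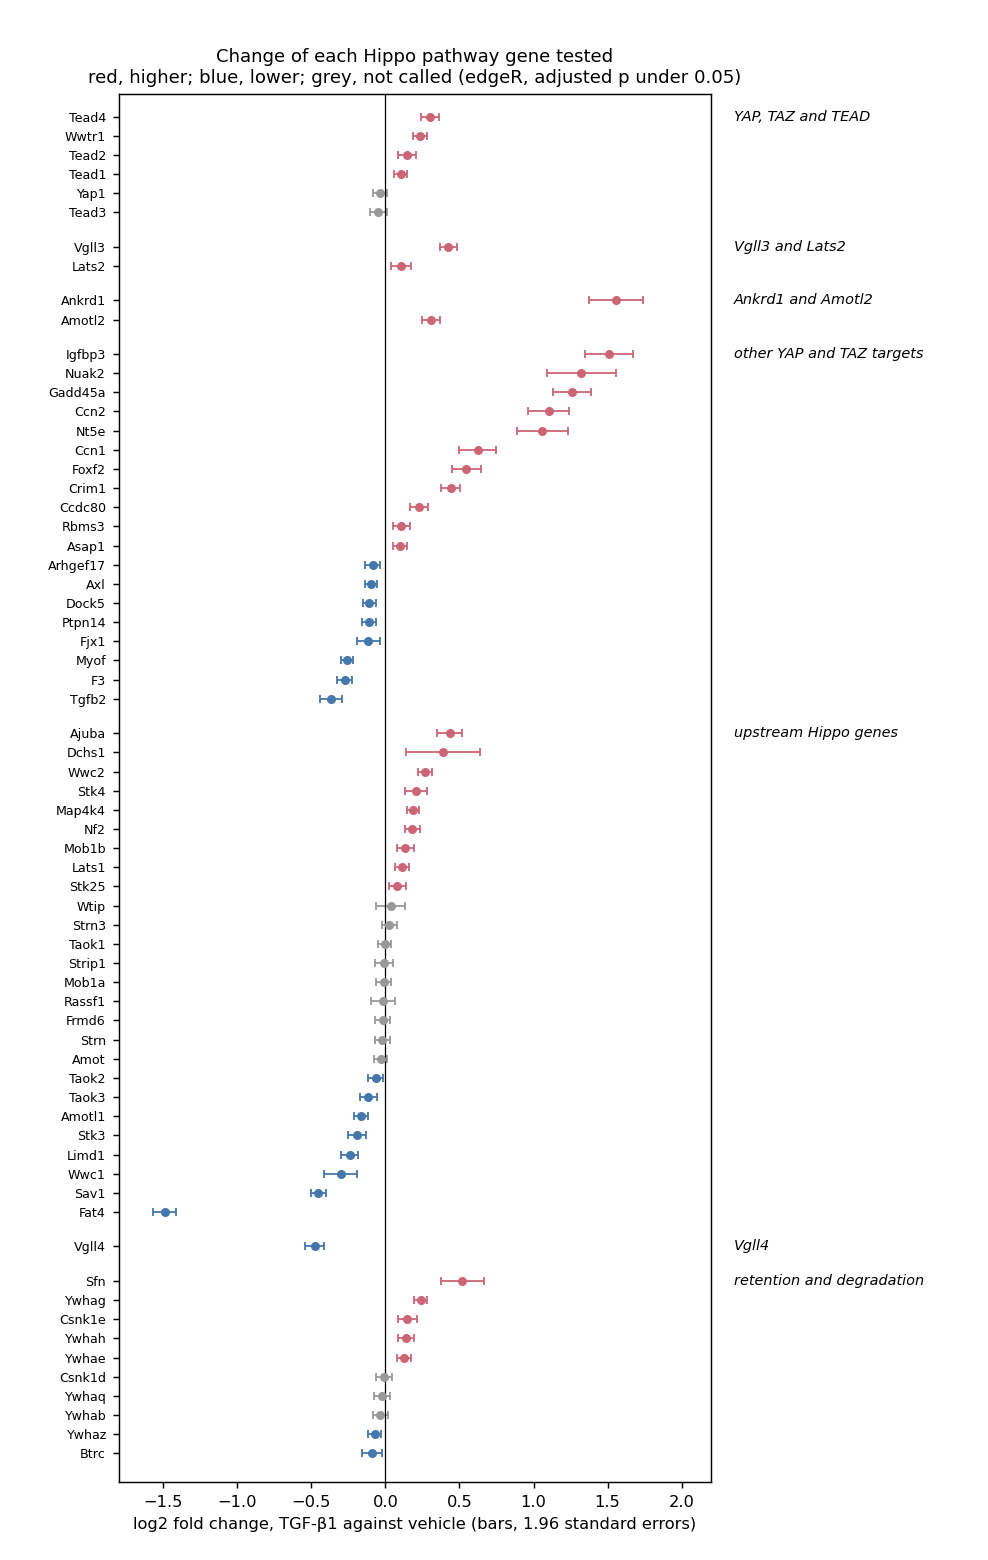
Log2 fold change of TGF-β1 against vehicle (x axis) for each gene tested of the 10 described and of the 4 other lists, with bars for the 95% interval, red where higher, blue where lower and grey where not called. The effectors lie between -0.05 and 0.30, upstream genes lie on both sides of 0, and *Ankrd1* and 5 other targets lie beyond 1.

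Over the 8 cultures, the genes whose log2 levels ran closest to *Ankrd1* were *Mcf2l*, *Inava* and *Egr2*, at root mean square distances of 0.0869, 0.116 and 0.126 on the log2 scale among 16493 genes. Their log2 fold changes were 1.55, 1.64 and 1.49. Closest to *Amotl2* were *Mid1ip1*, *Ddias* and *Ahcy*, at distances of 0.0219, 0.0227 and 0.0233, with log2 fold changes of 0.32, 0.30 and 0.28. The distance was taken over vehicle and treated cultures together, so like fold changes are built into the choice. None of these 6 genes was on the lists above.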

How the data were processed

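RNA from 8 mouse brain pericyte cultures (4 vehicle, 4 TGF-β1) was prepared with a stranded total RNA kit. The authors deposited raw counts per gene, 1 library per culture. Per the study's methods and the submitters' processing notes, reads were aligned to mm10 with STAR 2.7.5c, duplicates were removed with SAMtools 1.15 and counting used featureCounts 2.0.3, and DESeq2 was the authors' test. The annotation release and strand setting are not given in the sources used here. Duplicate removal can lower the counts of abundant genes. Between 68.5% and 70.2% of counts from 1 to 20 were even, so both mates of a pair may have been counted and independent fragments may be fewer than counts.

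Of 54532 identifiers, 54495 matched GENCODE M21 on GRCm38, the assembly named mm10, and its joined exon lengths gave CPM per kb. Counts were tested with edgeR 4.0.16 (R 4.3.3, limma 3.58.1) with filterByExpr, TMM factors and a robust quasi-likelihood fit, Benjamini-Hochberg adjustment over 22544 genes and a threshold of 0.05. CPM were scaled by TMM. A standard error was the log2 fold change divided by the square root of F. The 95% intervals reach 1.96 standard errors to each side. This is a normal quantile, so the intervals are approximate and too narrow for genes with few degrees of freedom. Single values were compared by exact two-sided permutation over 35 splits. The code was tested on simulated data. The fit treated the 8 cultures as independent although they came from 4 isolates. Its p-values measure the spread between cultures and not between 8 isolates. Within groups, pairs of cultures differed by a chi-square per degree of freedom of 2.25 to 3.96, or 1.14 to 2.10 on counts divided by 2. How far this spread stands for that between isolates was not tested.

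The members and lists (upstream genes, other vestigial-like genes, retention and degradation genes, targets, cell type markers) were chosen with earlier results of these data known. Named were the 10 members, *Ccn1*, *Ccn2*, *Lats1*, *Stk3* and *Stk4*, and from each list up to 3 rises and 3 falls, by size, among called genes whose groups did not overlap, and for *Ankrd1* and *Amotl2* the 3 closest genes of at least 1 CPM, by log2 CPM (prior count 2). Other genes were named after their values were seen. Start sequences are from RefSeq. Alternatives were DESeq2 1.42.0, its size factors, library totals, upper-quartile factors, filters that kept genes with 1 count in any culture or 10 in every culture, counts divided by 2, and each culture left out.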

Additional observations from a re-analysis of the deposited data

Results flagged for a closer look

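In *Igfbp3*, TGF-β1 replicate 5 was at 12.4 CPM and stood apart from the other treated cultures, of which the nearest was at 14.8 CPM. It still lay above every vehicle culture. This was 1 of 66 groups of 4 cultures examined, of which chance alone would set apart about 1 in 20, or 3.3.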

How the results depend on the processing

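Over 15 alternatives for the tool, the scaling, the filter and the cultures left out, the 33 named genes gave 495 values, of which 486 kept their direction and their side of the threshold, 9 lost their call and 0 reversed. The 9 were *Lats2* without vehicle replicate 1, *Dchs1* without vehicle replicate 4, *Ywhaz* without vehicle replicate 3, and *Btrc* without each of 6 cultures. *Yap1* and *Tead3* were not called under any of the 15, with adjusted p-values from 0.136 to 0.648 and from 0.0589 to 0.731. The number of the 10 genes called higher was 7 to 8, upstream genes called 15 to 17, targets called 17 to 19, and all genes called 8559 to 9311. Among targets, *Fjx1* lost its call without vehicle replicate 2, TGF-β1 replicate 5 or TGF-β1 replicate 8, and *Arhgef17* without TGF-β1 replicate 8 (adjusted p = 0.0892). Among upstream genes, *Taok2* lost its call without each of 6 cultures, and *Stk25* without vehicle replicate 2 or TGF-β1 replicate 6 and under the looser filter. The median log2 fold change of all genes lay between -0.02 and -0.002 under these settings. No paired analysis was possible because the labels give the vehicle cultures numbers 1 to 4 and the TGF-β1 cultures 5 to 8, which share none, although the methods describe isolates given both treatments. Depth limits *Ankrd1*, *Dchs1* and *Nuak2* most, at as few as 134, 97 and 119 counts.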
